A study of Mus musculus with 4 samples.

Results

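Ccl25, Ly75, Krt8, Krt18, Krt17 and Ctsl are grouped here as thymic epithelial genes and keratins, and their transcripts were measured in RNA of whole mouse heart. Every one of the 6 genes had a lower signal in both heterozygous pools than in both wild-type pools on its brightest probe set, by 2.63-fold for Ctsl to 18.2-fold for Krt17. The genes were selected by symbol in the probe annotation, which gives 6 of the 8251 genes named on the array and 9 of its 12422 probe sets. Earlier results of the same arrays were known when they were selected, so their differences between genotypes are given as a description and carry no p-value.

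The heterozygous group consisted of 2 pools and the wild-type group of 2 pools, each being total RNA from the hearts of 5 adult males. The mice were 8 to 16 weeks old and of a 129/Black Swiss background. The labels name 1 gene in which the heterozygous mice differ, and give no further allele, transgene or treatment for either genotype. Hearts were homogenised in Trizol, and the RNA was extracted once more with phenol and chloroform. Whether the pools of a genotype came from separate animals is not stated in the labels, so every p-value below measures only the spread between these 4 samples. An exact permutation test of 2 pools against 2 could not reach 0.05.

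The thymus lies directly above the heart. Its epithelial cells form a meshwork in which thymocytes, the precursors of T cells, settle, are selected and mature. Epithelium of the thymic cortex carries the keratins Krt8 and Krt18, the endocytic receptor Ly75 (DEC-205), which is also found on dendritic cells, and the lysosomal protease cathepsin L, the product of Ctsl, which trims the invariant chain of MHC class II there. The chemokine Ccl25 is secreted by thymic epithelium and by the small intestine and draws in cells that carry its receptor Ccr9. Keratins assemble in pairs of a type I chain (Krt18, Krt17) and a type II chain (Krt8). Krt8 and Krt18 pair in simple epithelia, and Krt17 belongs to basal and stressed stratified epithelium and to skin appendages. Ctsl is made in most tissues, heart included.

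Promoter sequence is shown for 3 start sites, because Krt8 and Krt18 are neighbouring protein-coding genes on chromosome 15 whose probe sets were both lower in the heterozygous pools by different amounts, and because the same 5 letters occur close to a start of Ccl25. The sequences are those of RefSeq on GRCm38.p6, each 100 bases long with 80 bases before the start and 20 bases from it on, written 5′ to 3′ on the strand of the gene. Capitals mark TATAA. Krt8 lies at chr15:102004323-102004422 on the minus strand, Krt18 at chr15:102028136-102028235 on the plus strand, and the second start of Ccl25 at chr8:4349508-4349607 on the plus strand.
Krt8: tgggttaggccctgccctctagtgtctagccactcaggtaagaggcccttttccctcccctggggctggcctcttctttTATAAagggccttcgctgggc
Krt18: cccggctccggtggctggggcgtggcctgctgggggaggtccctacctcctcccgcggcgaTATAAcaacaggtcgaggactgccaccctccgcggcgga
Ccl25, second start: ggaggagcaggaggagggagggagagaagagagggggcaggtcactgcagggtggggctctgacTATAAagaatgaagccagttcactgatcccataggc
The first T of TATAA stands 1 base before the start in Krt8, 19 bases before it in Krt18 and 16 bases before it in Ccl25. TATAA on the strand of the gene was present in 2422 of the 32851 stretches of this length in the table (7.37%), and on either strand in 24.9% of the full stretches of 300 bases. Of the 6 members, 5 matched the table. The first start of Ccl25, and the starts of Ly75 on chromosome 2 and Ctsl on chromosome 13, did not hold these letters in the same stretch. A match is a description of the letters and no evidence of a binding site, and the array does not tell which start of Ccl25 was used.

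Of the 9 probe sets, 7 were bright enough to be tested. All 7 were called lower by limma and 0 higher, and in all 7 both heterozygous pools lay below both wild-type pools. Over the whole array 20.4% of tested probe sets were called lower, in 35.5% both heterozygous pools lay below both wild-type pools, and in 70.1% the genotypes did not overlap in either direction. Since the same contrast chose the genes, nothing is read from these counts. The median log2 change of the brightest probe set of the 6 genes was -3.04, beside 0.02 over the 5692 named genes tested. In RNA of a whole organ, fewer cells of a type and less RNA per cell cannot be told apart. Changes are given as heterozygous minus wild type on the log2 scale with limma's standard error (SE), and signals as the deposited linear intensities with their SD over 2 pools.

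Ccl25, the only ligand among the 6 genes, had signals of 828.9 and 693.8 in the heterozygous pools, against 8440.9 and 6861.1 in the wild-type pools. Both heterozygous pools were low and both wild-type pools high, with no overlap. The means were 761 ± 95.5 in heterozygous and 7651 ± 1117 in wild-type hearts, so that 9.96% of the wild-type signal was left (log2 change -3.33, SE 0.18). Across the 4 ways of pairing a wild-type with a heterozygous pool the decrease was between 8.28-fold and 12.2-fold. Ccr9, the receptor of Ccl25 on thymocytes, had signals of 401 and 444.5 in the heterozygous pools, against 2514.3 and 2677.7 in the wild-type pools. It fell 6.15-fold (log2 change -2.62, SE 0.19, limma adjusted p = 2.8e-05), so the transcripts of the chemokine and of its receptor were both low in the same pools.

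Ly75, the endocytic receptor, had signals of 279.2 and 279.4 in the heterozygous pools, against 2603.6 and 3724.6 in the wild-type pools. The heterozygous pools were nearly equal. The wild-type pools differed from each other (log2 difference of pool 1 minus pool 2, -0.52), and both lay far above the heterozygous ones. Its level was 11.1-fold lower in heterozygous hearts (log2 change -3.48, SE 0.23), with pairs of pools between 9.32-fold and 13.3-fold. Of its relatives in the mannose receptor family, Mrc1, the macrophage mannose receptor, rose (log2 change 0.70, limma adjusted p = 0.0332) and Mrc2, a collagen receptor of mesenchymal cells, had a change of 0.91 that did not pass (limma adjusted p = 0.103) but passed with quantile normalization (1.42, limma adjusted p = 0.0323). The Mrc1 call ended without heterozygous pool 1 (0.50), wild-type pool 1 (0.64) or wild-type pool 2 (0.76), and when dim probe sets were kept. Pla2r1, the next protein-coding gene to Ly75 on chromosome 2 and a member of that family, was too dim to be tested.

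Krt8 had signals of 1126.1 and 1053.3 in the heterozygous pools, against 3975.3 and 3247.1 in the wild-type pools. Krt18, its partner chain, had signals of 760.3 and 602.8 in the heterozygous pools, against 4497.3 and 4648.8 in the wild-type pools. The groups did not overlap for either gene. The log2 change was -1.72 for Krt8 (SE 0.18, 3.30-fold lower) and -2.76 for Krt18 (SE 0.18, 6.75-fold lower). Pairs of pools gave 2.88-fold to 3.77-fold for Krt8 and 5.92-fold to 7.71-fold for Krt18, so the ranges of the pair did not meet: 30.3% of the wild-type signal of Krt8 was left and 14.8% of that of Krt18. The second probe set of Krt18 was dark, with signals of 29.4 and 15.5 in the heterozygous pools, against 5.5 and 10.7 in the wild-type pools. All 4 values lie below the floor of 36.25 used before taking logs, so this probe set gives no measure of Krt18.

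Krt17 was measured by 3 probe sets. On the brightest of the tested ones its signals were 55.7 and 122 in the heterozygous pools, against 1514.1 and 1484.5 in the wild-type pools. On the other tested one they were 88.3 and 56.2 in the heterozygous pools, against 1660.8 and 1161.5 in the wild-type pools. Both showed the largest decreases of the 6 genes, also under every alternative that tested them, 18.2-fold (log2 change -4.18, SE 0.44) and 19.7-fold (log2 change -4.30, SE 0.42), and also the widest pair ranges, 12.2-fold to 27.2-fold and 13.2-fold to 29.6-fold. The heterozygous means of 88.9 and 72.3 lie below the 20th percentile of all signals (89.6), in the range of the dimmest keratins, so the probe sets passed the filter through the wild-type pools and the size of the fold rests on dim values. The heterozygous pools were in opposite order on these probe sets, and with quantile normalization the changes were -3.53 and -3.75. The third probe set had signals of 329.1 and 325.9 in the heterozygous pools, against 162.5 and 515.4 in the wild-type pools. There the groups overlapped (log2 change 0.18) and the wild-type pools differed widely from each other (log2 difference of pool 1 minus pool 2, -1.67), so this untested probe set did not show the decrease of the other ones.

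Ctsl, the lysosomal protease, had signals of 8457.3 and 7332.8 in the heterozygous pools, against 22692.6 and 18969.7 in the wild-type pools. The groups did not overlap, but the decrease was the smallest of the 6 genes: 2.63-fold (log2 change -1.40, SE 0.15), with pairs between 2.24-fold and 3.09-fold and 38.0% of the wild-type signal left. The means were 7895 ± 795 in heterozygous and 20831 ± 2632 in wild-type hearts (SD, n = 2).

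**Figure D1:**
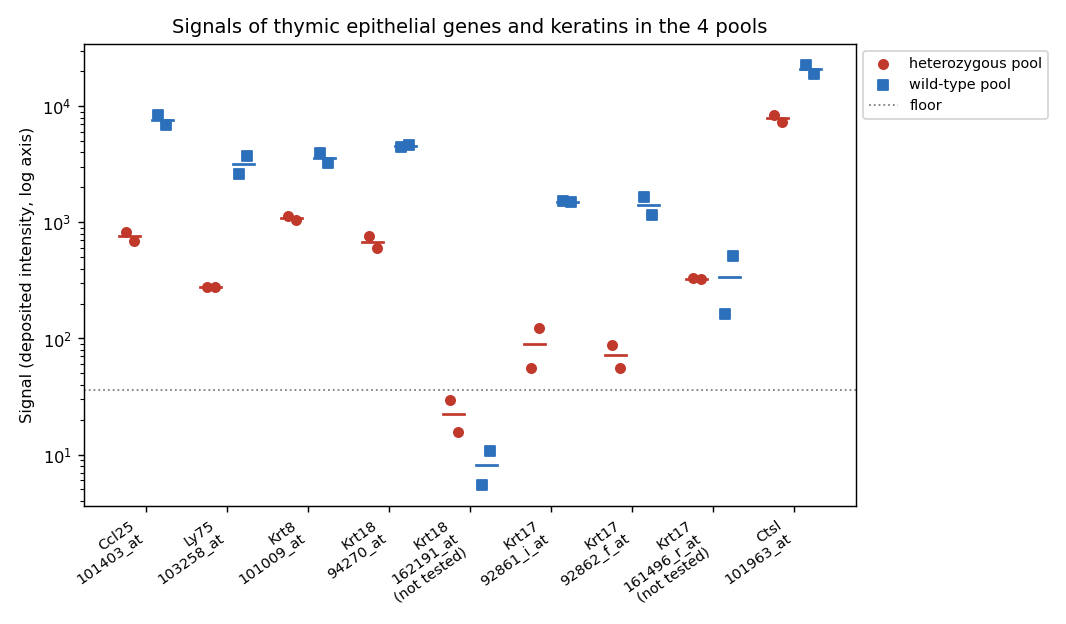
Deposited signal intensity (log axis) of the 9 probe sets of Ccl25, Ly75, Krt8, Krt18, Krt17 and Ctsl, with 1 point per pool, a bar at the mean of 2 pools and a dotted line at the floor of 36.25. On the 7 tested probe sets both heterozygous points lie below both wild-type points, with the widest gap for Krt17 and the narrowest for Ctsl, while the untested ones of Krt18 and Krt17 do not show this order.

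Between pools of the same genotype most of the genes differed little beside these changes. The log2 difference of heterozygous pool 1 minus pool 2 was 0.26 for Ccl25, 0.10 for Krt8, 0.33 for Krt18 and 0.21 for Ctsl, and that of wild-type pool 1 minus pool 2 was 0.30, 0.29, -0.05 and 0.26 for the same genes. The median absolute difference over all tested probe sets was 0.21 within either genotype. The exceptions were Ly75, with -0.52 between the wild-type pools, and Krt17, with -1.13 and 0.65 between the heterozygous pools on its tested probe sets.

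The thymocyte list holds 30 genes of developing T cells, of which 23 were tested, and 7 were not analysed here. Of the 23, 22 fell, 0 rose and 1 did not pass (Lat, log2 change -0.02). The median log2 change was -2.59. The summed signal of the 23 genes was 30051 and 29428 in the heterozygous pools, against 198654 and 197025 in the wild-type pools. Cd8b1, a chain of the CD8 co-receptor, changed by -5.16, Zap70, a kinase of T cell receptor signalling, by -3.62, Cd3d, a chain of the CD3 complex, by -3.55 and Cd8a by -3.51. Of the other probe sets of Zap70, 1 was lower (-3.09) and 1 did not pass (-0.17). Thymocyte transcripts and the 6 genes were thus low in the same pools. The part of thymic tissue in these differences was not tested.

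Set against the mean log2 signal of the 23 thymocyte genes in the same pool, the 6 genes did not move as 1 block. That mean was 9.74 and 9.73 in the heterozygous pools, against 12.34 and 12.32 in the wild-type pools, a change of -2.59. The level of Krt8 relative to it was 0.40 and 0.31 in the heterozygous pools, against -0.39 and -0.65 in the wild-type pools. Ctsl stood at 3.30 and 3.11 in the heterozygous pools, against 2.13 and 1.89 in the wild-type pools. Both therefore decreased less than the thymocyte mean, by 0.87 for Krt8 and 1.20 for Ctsl on the log2 scale, and 20 of the 23 thymocyte genes had a larger decrease than either. Krt18 stood at -0.17 and -0.50 in the heterozygous pools, against -0.21 and -0.14 in the wild-type pools. Its groups overlapped on this scale and 10 of the 23 thymocyte genes had a larger decrease, so Krt18 was in the middle of them. Over all alternatives that count was 8 to 12.

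Ccl25 stood at -0.05 and -0.29 relative to the thymocyte mean in the heterozygous pools, against 0.70 and 0.42 in the wild-type pools. Ly75 stood at -1.62 and -1.61 in the heterozygous pools, against -0.996 and -0.457 in the wild-type pools. Both decreased more than the mean. The difference of the changes was -0.73 for Ccl25 and -0.89 for Ly75, with 5 and 4 thymocyte genes having a larger decrease. For Ly75 that count was 1 without wild-type pool 1 (log2 change -3.74) and 8 without wild-type pool 2 (-3.22). Krt17 went furthest, with differences of -1.59 and -1.71 on its tested probe sets and 1 thymocyte gene beyond it. On the brighter probe set 3 thymocyte genes were beyond it with quantile normalization and 4 without heterozygous pool 1 (log2 change -3.62). These differences have no test, since they are built from the contrast that chose the genes.

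**Figure D2:**
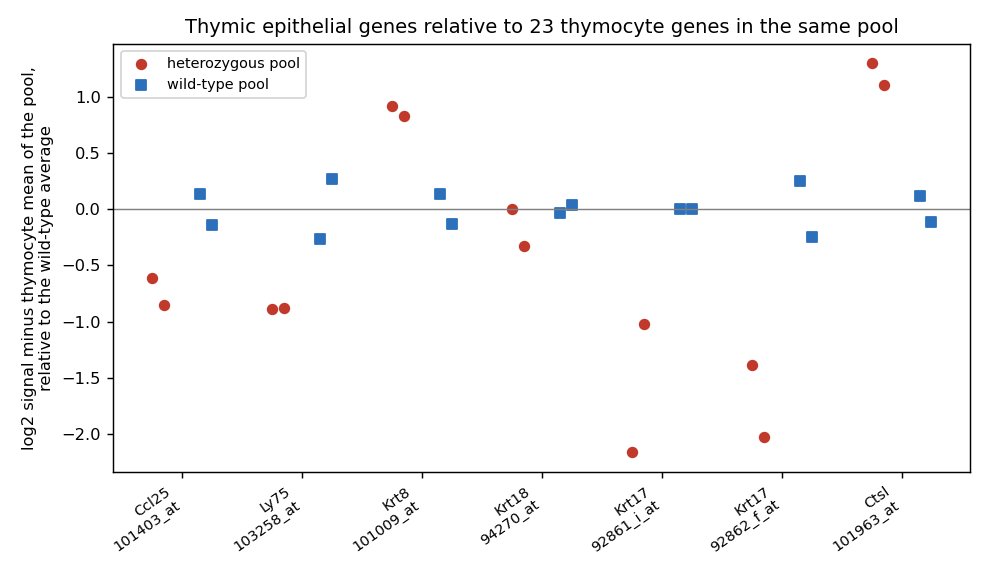
Log2 signal of each of the 7 tested probe sets minus the mean log2 signal of 23 thymocyte genes in the same pool, drawn as the difference from the average of the wild-type pools, 1 point per pool. Krt8 and Ctsl lie higher in the heterozygous pools on this scale, Krt18 overlaps, and Ccl25, Ly75 and Krt17 lie lower.

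The tested probe sets of other genes closest to each of the 6 in pattern were found by the Euclidean distance between log2 signals in the 4 pools, each set centred on its own mean. For Ccl25 they were Cd3g (distance 0.0908), a chain of the CD3 complex, and Mki67 (0.115), a marker of dividing cells. For Ly75 they were Dntt (0.0650), the terminal transferase of T and B cell precursors, and Hmgb2 (0.175), a chromatin protein. For Krt8 they were Mtf2 (0.0700), a Polycomb partner, and Ccl5 (0.0708), a chemokine. Sh2d1a (0.174), an adaptor of lymphocyte receptors, and Cd5 (0.224), a T cell surface protein, were closest to Krt18. Ighg3 (0.139), an immunoglobulin heavy chain constant region with 1 heterozygous value below the floor, and Nsg2 (0.248), a protein of neuronal vesicles, were closest to Krt17. Ccng2 (0.0542), a cyclin, and Itgb7 (0.0643), an integrin of lymphocytes, were closest to Ctsl. With 4 points, which mostly separate the genotypes, a small distance says only that size of change and order of pools were alike.

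Among other genes of thymic epithelium, Pax1, Cd83, Fezf2 and Fgfr2 fell and most did not pass. Of 36 listed, 24 were on the array with 1 symbol and 15 were tested. Of these, 4 fell, beside 20.4% of all tested probe sets, 10 did not pass, and 1 (Cxcl12) was called higher on its brightest probe set and lower on another. Their median log2 change was -0.33. With arrays centred on heart muscle genes 9 of the 15 were called lower. Pax1, a transcription factor of the thymic primordium, had signals of 212.4 and 278.5 in the heterozygous pools, against 1104.9 and 1149.4 in the wild-type pools, and fell 4.63-fold (log2 change -2.21, SE 0.28, limma adjusted p = 4.7e-04). Cd83, which cortical epithelium and dendritic cells carry, fell 3.75-fold (log2 change -1.91, limma adjusted p = 5.1e-04). Fezf2, a regulator of self-antigens in medullary epithelium, fell 2.95-fold (log2 change -1.56, limma adjusted p = 0.00890), and Fgfr2, a receptor for the growth of thymic epithelium, fell 2.29-fold (log2 change -1.20, limma adjusted p = 0.00881). All 4 had both heterozygous pools below both wild-type pools. The Fgfr2 call ended without heterozygous pool 2 (-1.03) or wild-type pool 2 (-0.97), the Fezf2 call ended without wild-type pool 2 (-1.44), and both ended when dim probe sets were kept. Without wild-type pool 2 the list held 2 genes that fell.

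The probe sets of Cxcl12, a chemokine of stromal cells in thymus, heart and marrow, disagreed. The brightest had signals of 5342.7 and 5335.3 in the heterozygous pools, against 2619 and 2706.4 in the wild-type pools (log2 change 1.00, limma adjusted p = 9.7e-04; 0.35 and not called with arrays centred on heart muscle genes). Another had 1538.5 and 1226.8 in the heterozygous pools, against 2665.5 and 2953.9 in the wild-type pools (log2 change -1.03, limma adjusted p = 0.00252). The remaining one was higher in both heterozygous pools and did not pass (0.61, limma adjusted p = 0.0560). Because the called probe sets went opposite ways, no direction is given for the gene. Cldn4, a tight junction protein of medullary epithelium, changed by -0.84 and did not pass (limma adjusted p = 0.0635), and neither did Aire, the regulator of self-antigens in medullary epithelium (-0.33, limma adjusted p = 0.479).

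Apart from Aire, the defining markers of thymic epithelium were too dim to be tested where they were measured. Foxn1, the master regulator of the lineage, had signals of 36.2 and 114.3 in the heterozygous pools, against 67.2 and 36.6 in the wild-type pools, which overlap. Krt5 (58.3 and 40.4 in the heterozygous pools, against 76.3 and 141.8 in the wild-type pools) and Krt14 (31.3 and 46.9 in the heterozygous pools, against 31 and 154.1 in the wild-type pools), the keratin pair of medullary epithelium, were likewise near the floor. Epcam, an adhesion protein of epithelia, had 13 and 101.3 in the heterozygous pools, against 251.1 and 159.9 in the wild-type pools. Hoxa3, a factor of the pharyngeal pouch that was named after its values were seen, had 33.8 and 46.5 in the heterozygous pools, against 173.7 and 184.7 in the wild-type pools. Krt5, Epcam and Hoxa3 were lower in both heterozygous pools, and Foxn1 and Krt14 overlapped between the genotypes. The other genes of the list that were too dim, named after their values were seen, went both ways. Dll1 was higher, with 598.2 and 330.6 in the heterozygous pools, against 286.5 and 127.2 in the wild-type pools. Pax9 was lower (53.7 and 21.8, against 112.9 and 61.8), and Il7 and Tnfrsf11a overlapped. Psmb11 and Prss16, the protease genes most particular to cortical epithelium, were not analysed here. Of the tested epithelial genes of the list, Cdh1 (log2 change -0.29, limma adjusted p = 0.284) and Trp63 (-0.66, limma adjusted p = 0.17) did not pass. Both were named after their values were seen, and both had the heterozygous pools below the wild-type pools. The remaining genes of the list that did not pass, also named after their values were seen, went both ways. Cldn3 (0.32), Kitl (0.50) and Ltbr (0.31) were higher in both heterozygous pools, Cd40 (-0.35) was lower, and Eya1 (0.33) and Relb (0.07) overlapped. The name of the 6 genes as thymic epithelial therefore rests on what is known of them, and few defining markers could be tested.

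The summed signal of the 24 other thymic epithelial genes was 16256 and 17380 in the heterozygous pools, against 15864 and 17444 in the wild-type pools, with overlap between the genotypes. Without Cxcl12 it was 10913 and 12044 in the heterozygous pools, against 13245 and 14737 in the wild-type pools, with no overlap, so the overlap came from the brightest probe set of that gene. In the plot of gene lists their points spread on both sides of no change, while the 6 genes and the thymocyte genes lie almost entirely below it.

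**Figure D3:**
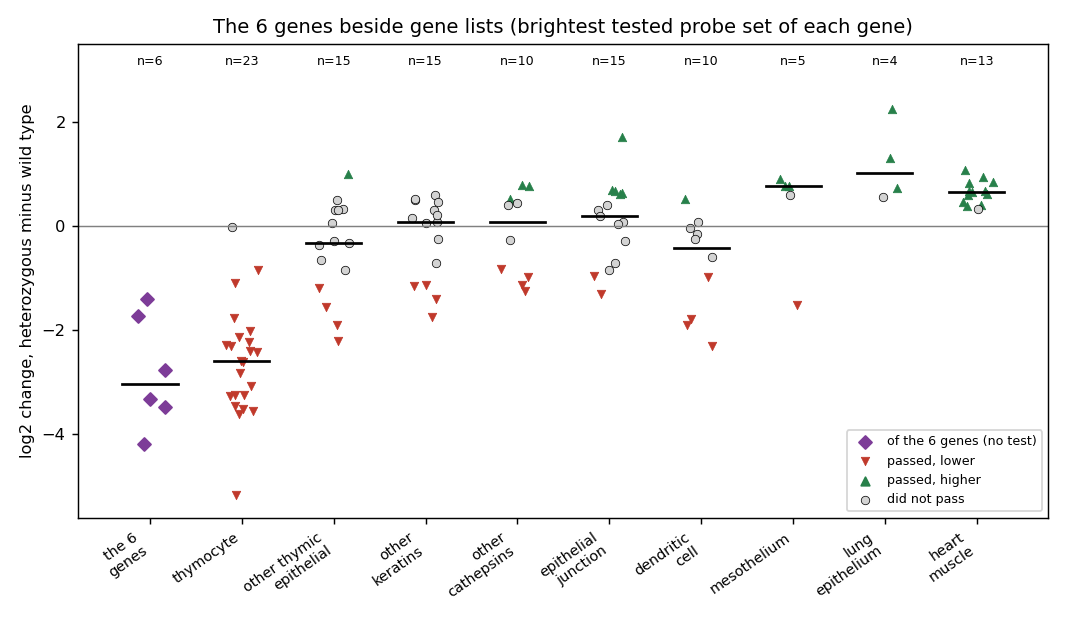
Log2 change, heterozygous minus wild type, of the 6 genes and of the tested genes of each list, 1 point per gene on its brightest tested probe set and a bar at the median. The 6 genes (median -3.04) and the thymocyte list (median -2.59) lie below 0, further thymic epithelial genes (median -0.33) straddle it, and heart muscle genes (median 0.65) lie above it.

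Of 37 further keratins, 26 were on the array and 15 were tested. Of these, 4 fell, 0 rose and 11 did not pass, and the median log2 change was 0.07. Over all tested probe sets 20.4% were called lower and 17.9% higher, and these shares also stand beside the counts of the lists below. Krt13, a type I keratin of mucosal stratified epithelium, had signals of 1231.6 and 1236.6 in the heterozygous pools, against 4402.5 and 3920.6 in the wild-type pools, and fell 3.37-fold (log2 change -1.75, SE 0.16, limma adjusted p = 9.4e-05). Its partner Krt4 had 4156.7 and 3721.5 in the heterozygous pools, against 9522.8 and 7843.4 in the wild-type pools (log2 change -1.14, limma adjusted p = 7.9e-04). Krt13 and Krt4 pair in the same epithelia, and both were lower without overlap, each also on another tested probe set (-1.62 for Krt13 and -1.42 for Krt4). The remaining probe set of Krt13, too dim to be tested, overlapped between the genotypes (0.25).

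Krt10, a type I keratin of cornifying epithelium, fell as well (log2 change -1.40, limma adjusted p = 0.00306), and so did Krt7, a type II keratin of ducts and simple epithelia (-1.15, limma adjusted p = 0.0109), whose call ended without wild-type pool 2 (-0.98) and when dim probe sets were kept. Krt33b, a hair keratin, changed by -0.72 and did not pass (limma adjusted p = 0.0726). Krt19, a type I keratin of simple epithelia and medullary thymus, had signals of 682.6 and 631.1 in the heterozygous pools, against 561.2 and 336.7 in the wild-type pools, and did not pass (0.59, limma adjusted p = 0.165; -0.059 with arrays centred on heart muscle genes). Krt16, the neighbour of Krt17 on chromosome 11, named after its values were seen, was too dim to be tested, with 74.3 and 22.8 in the heterozygous pools, against 183.7 and 107.5 in the wild-type pools.

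Among intermediate filament genes that are no keratins, 5 were tested: 3 rose and 1 fell. Des, the desmin of muscle (log2 change 0.79, limma adjusted p = 0.00780), Nes, the nestin of progenitor and endothelial cells (1.07, limma adjusted p = 0.00245), and Lmna, a lamin of differentiated cells (1.03, limma adjusted p = 5.4e-04), rose. Lmnb1, a lamin abundant in proliferating cells and lymphocytes, fell (-2.54, limma adjusted p = 1.1e-04), and Lmnb2 did not pass (-0.33, limma adjusted p = 0.344). The Des call ended without heterozygous pool 2 (0.71), the Des and Nes calls ended when dim probe sets were kept, and another probe set of Lmna did not pass (0.51).

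**Figure D4:**
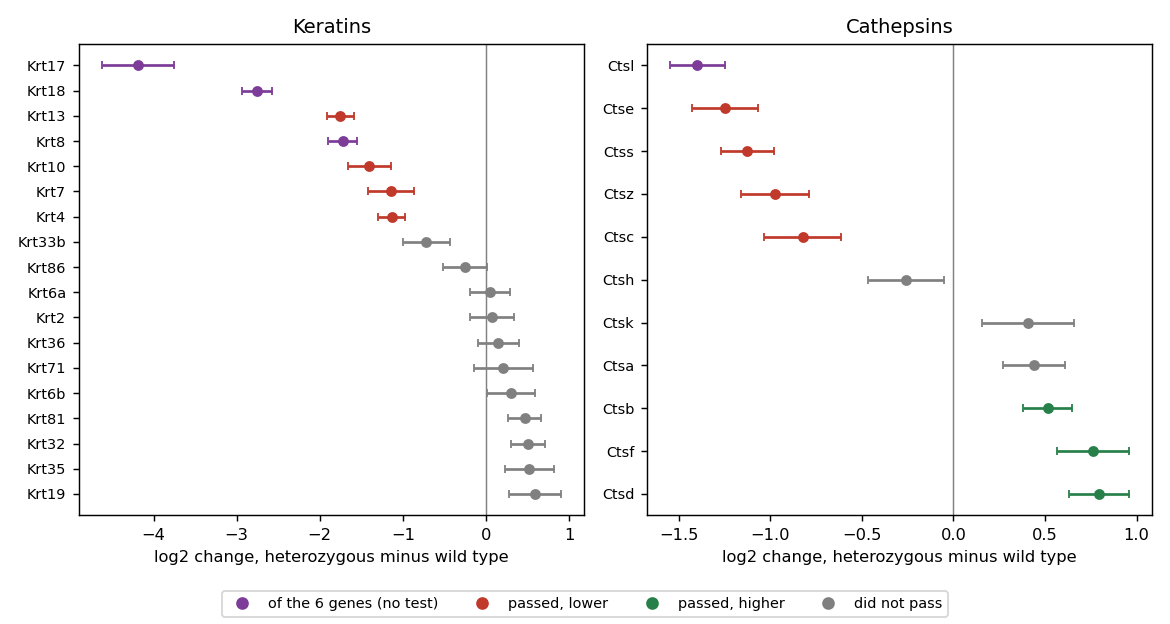
Log2 change, heterozygous minus wild type, with limma's SE as error bars, of the keratins and cathepsins tested, 1 probe set a gene, Krt8, Krt18, Krt17 and Ctsl among them. Krt17 (-4.18) and Krt18 (-2.76) have the largest decreases among keratins and Ctsl (-1.40) among cathepsins on the brightest probe set of each gene (another probe set of Ctse, not drawn, has -2.66), while Krt19 (0.59) and Ctsd (0.80) lie above 0.

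Cathepsins, the lysosomal proteases to which Ctsl belongs, went both ways: of 10 others tested, 4 fell, 3 rose and 3 did not pass (median log2 change 0.07). Ctss, which trims the invariant chain in dendritic cells and macrophages, had signals of 2858.8 and 2823.4 in the heterozygous pools, against 6417.4 and 5980.2 in the wild-type pools (log2 change -1.12, limma adjusted p = 5.4e-04). Ctse, an aspartic protease of immune cells and stomach, changed by -1.25 on its brightest probe set (limma adjusted p = 9.3e-04) and by -2.66 and -0.97 on its other ones (limma adjusted p = 1.7e-05 and 0.00226). Ctsz changed by -0.97 (limma adjusted p = 0.00369) and Ctsc, the activator of granule proteases, by -0.82 (limma adjusted p = 0.0140). Ctsd, the main aspartic protease of lysosomes, had 22999.3 and 30531.7 in the heterozygous pools, against 16232.8 and 14331.9 in the wild-type pools, and rose (0.80, limma adjusted p = 0.00530), as did Ctsf (0.76, limma adjusted p = 0.0148). Ctsb, named after its values were seen, was the remaining gene that rose (0.52, limma adjusted p = 0.0154; -0.138 with arrays centred on heart muscle genes). The further cathepsins that fell were thus Ctss, Ctse, Ctsz and Ctsc, whereas Ctsd, Ctsf and Ctsb rose.

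Several of these calls ended when a single pool was left out, which also leaves fewer arrays to test. The Ctsc call ended without heterozygous pool 1 (-0.68) or wild-type pool 2 (-0.62), the Ctsd call without heterozygous pool 2 (0.59), the Ctsf call without heterozygous pool 1 (0.68) or wild-type pool 2 (0.68), and the Ctsb call without heterozygous pool 1 (0.52), heterozygous pool 2 (0.51) or wild-type pool 2 (0.42). All 4 also ended when dim probe sets were kept, and the other tested probe sets of Ctsb (0.61 and 0.30) did not pass. Of the inhibitors of these proteases, Cstb, the cystatin B of the cytosol, had signals of 5275.9 and 6556 in the heterozygous pools, against 21039.9 and 20564.4 in the wild-type pools, and fell (log2 change -1.82, limma adjusted p = 5.1e-05). The secreted cystatin C gene Cst3 rose (0.52, limma adjusted p = 0.0162; -0.137 with arrays centred on heart muscle genes), a call that ended without either heterozygous pool (0.56 and 0.47) or without wild-type pool 1 (0.39), and without the filter. Ctsl and its cytosolic inhibitor were therefore both lower in the heterozygous pools.

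Keratins are held at desmosomes and hemidesmosomes, so genes of epithelial junctions were set beside them. Of 15 tested, 2 fell, 5 rose and 8 did not pass (median log2 change 0.20), beside 20.4% of all tested probe sets called lower and 17.9% higher. The summed signal was 62458 and 67477 in the heterozygous pools, against 40758 and 49121 in the wild-type pools. A large part of it was Dsp, with 29579.9 and 36541.8 in the heterozygous pools, against 16892.8 and 26154.7 in the wild-type pools. Itgb4, a chain of the hemidesmosome integrin (-1.30, limma adjusted p = 0.00833), and Pkp1, a plakophilin of stratified epithelium (-0.96, limma adjusted p = 0.00653), fell. Jup, the plakoglobin that heart muscle also carries, rose (1.72, limma adjusted p = 8.8e-05). Dsp (0.65), Dsc2 (0.70), Pkp2 (0.67) and Perp (0.61), named after their values were seen, rose too (limma adjusted p of 0.0101 to 0.0363), the first 3 of them also being parts of the junctions of heart muscle, but with arrays centred on heart muscle genes Dsp (-0.0081) and Perp (-0.0452) turned negative. Each of these 4 calls ended without heterozygous pool 1 (0.80 for Dsp, 0.69 for Dsc2, 0.52 for Pkp2 and 0.56 for Perp). The Dsp and Dsc2 calls also ended without heterozygous pool 2 (0.49 and 0.71) or wild-type pool 1 (0.33 and 0.65), and the Perp call without heterozygous pool 2 (0.65). The Itgb4, Dsp, Pkp2 and Perp calls ended when dim probe sets were kept. Another tested probe set of Pkp2 was also called higher (1.11, limma adjusted p = 9.7e-04). Genes that did not pass, named after their values were seen, went both ways. Cdh1, Cldn4 and Sfn (-0.70) were lower in both heterozygous pools, Cldn3 and Dsg2 (0.40) were higher, and the rest overlapped. Of those too dim to be tested, also named after their values were seen, Spint1, Pkp3 and Epcam were lower. Spint2 was higher, and the rest of the dim ones overlapped.

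Dendritic cells carry Ly75 and Cd83 as well. Of 10 tested genes of their list, 4 fell, 1 rose and 5 did not pass (median log2 change -0.41), beside 20.4% of all tested probe sets called lower and 17.9% higher. The summed signal was 69194 and 73277 in the heterozygous pools, against 75480 and 77880 in the wild-type pools. Most of it came from Cst3 (45166.7 and 47878.7, against 29819.6 and 35452.7) and Cd74 (16657.9 and 15441.5, against 34032.5 and 29486), which changed in opposite directions. Ccr7, the homing receptor of lymphocytes and mature dendritic cells (-2.29, limma adjusted p = 0.00200), Irf8 (-1.79, limma adjusted p = 1.1e-04), the invariant chain gene Cd74 (-0.98, limma adjusted p = 7.8e-04) and Cd83 fell, and Cst3 was the gene that rose (-0.137 with arrays centred on heart muscle genes). The defining marker Itgax did not pass (-0.59, limma adjusted p = 0.143). The part of dendritic cells in the levels of Ly75 was not tested.

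Simple keratins also occur in the mesothelium around the heart and in lung epithelium. Of 5 tested mesothelial genes 3 rose, 1 fell and 1 did not pass (median 0.77), and their summed signal was 11052 and 10064 in the heterozygous pools, against 8665 and 7440 in the wild-type pools. Upk3b (0.77, limma adjusted p = 0.00612), Tcf21 (0.78) and Igfbp6 (0.91) rose, Slpi, a protease inhibitor of mucosal epithelium, fell (-1.52, limma adjusted p = 0.00107; another probe set, -0.28, did not pass), and the markers Msln, Wt1 and Bnc1 were too dim. The Upk3b call ended without heterozygous pool 2 (0.71), and the Tcf21 call without heterozygous pool 1 (0.68), heterozygous pool 2 (0.88) or wild-type pool 1 (0.70). When dim probe sets were kept, the Tcf21, Igfbp6 and Slpi calls ended.

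Of 4 tested lung genes 3 rose, 0 fell and 1 did not pass (Foxj1, 0.57, limma adjusted p = 0.268; -0.0868 with arrays centred on heart muscle genes). Sftpc, a surfactant protein, had signals of 2061 and 1949.4 in the heterozygous pools, against 356.3 and 498 in the wild-type pools (log2 change 2.25, limma adjusted p = 1.5e-04). Scgb1a1, a secretory protein of the airway, rose by 1.32 and Cyp2f2 by 0.74 on the log2 scale. The Cyp2f2 call ended when dim probe sets were kept and without heterozygous pool 1 (0.58), heterozygous pool 2 (0.90) or wild-type pool 2 (0.51). The summed lung signal was 60742 and 52274 in the heterozygous pools, against 25242 and 21522 in the wild-type pools. Most of this sum was Scgb1a1, with 52300 and 44848.8 in the heterozygous pools, against 21075.8 and 17938.6 in the wild-type pools. The lung transcripts that rose were thus higher in the pools in which Krt8, Krt18 and Ccl25 were lower. The markers Sftpb and Sftpd were too dim. Of thyroid and parathyroid genes 4 were measured and 0 were bright enough to be tested. Pth, the parathyroid hormone, named after its values were seen, had signals of 13.9 and 73.5 in the heterozygous pools, against 522.8 and 567.9 in the wild-type pools. The others of that list were not lower. Pax8 was higher, with 144.2 and 82.7 in the heterozygous pools, against 66.9 and 47.2 in the wild-type pools. Tg (20 and 35.5, against 27.9 and 31.1) and Tshr (43.1 and 106.8, against 45.5 and 22.5) overlapped between the genotypes.

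Heart muscle itself was well represented in all 4 pools. Of 13 genes of the list 12 rose, 0 fell and 1 did not pass (Actc1, 0.34, limma adjusted p = 0.0726). The largest changes were those of Mybpc3 (1.07), Ckm (0.95), Myl7 (0.84) and Ryr2 (0.84), genes of the sarcomere, energy supply and calcium release, with limma adjusted p of 7.3e-04 to 0.00379. The Ryr2 call ended without heterozygous pool 2 (0.78), the Mybpc3, Myl7 and Ryr2 calls ended when dim probe sets were kept, and another probe set of Ckm did not pass (-0.08). The median log2 change was 0.65, and the summed signal was 967039 and 986011 in the heterozygous pools, against 683802 and 618841 in the wild-type pools. Signals are relative to the general level of each array, since the means without the top and bottom 2% were nearly equal (1487 to 1501). With each array centred on these genes, a choice made after seeing the data, the changes became -3.98 for Ccl25, -4.13 for Ly75, -2.38 for Krt8, -3.41 for Krt18, -4.84 for Krt17 and -2.05 for Ctsl. As deposited, at a common median, with quantile normalization, with cyclic loess and with this centring, all 7 tested probe sets of the 6 genes were lower in the heterozygous pools. The centring and the common median each move every change by the same amount (medians of -0.65 and 0.13 over all tested probe sets). Neither could therefore reverse decreases of this size. Most increases named above depended on the scaling: under the centring those of Cxcl12, Mrc1, Des, Nes, Ctsd, Ctsf, Ctsb, Cst3, Dsp, Dsc2, Pkp2, Perp, Upk3b, Tcf21, Igfbp6 and Cyp2f2 were no longer called, whereas Cldn4 (-1.49), Krt33b (-1.37) and Lmnb2 (-0.98) were then called lower. The increases of Myl7 (0.19), Ryr2 (0.18) and Ckm (0.30), genes that the centring itself uses, were not called under it either. Of the other scalings, cyclic loess ended the calls of Dsp (0.37), Ctsb (0.28) and Cst3 (0.22), and quantile normalization ended that of Dsp (0.43).

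The arrays as a whole had median signals of 508.85 and 531.15 in the heterozygous pools, against 569.75 and 608.2 in the wild-type pools. Of 7453 tested probe sets, 38.3% were called, 17.9% as higher and 20.4% as lower in heterozygous hearts. The 2856 calls became 1708 without heterozygous pool 1 and 1707 without heterozygous pool 2. Across probe sets, which do not count as replicates, log2 signals correlated at 0.970 between the heterozygous pools, 0.971 between the wild-type pools and 0.845 to 0.856 between genotypes.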

How the data were processed

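The authors deposited linear signal intensity values, 1 per probe set and array, for 12488 probe sets on 4 one-colour arrays. The program that summarised probes is not named in the labels. Trimmed means (2% removed at each end) differed by at most 1.01 times, so the intensities were used as deposited. After removing 66 controls, signals below the 10th percentile (36.25) were raised to it (16 of 29812 tested values), log2 was taken, and the dimmest 40% of probe sets were not tested, which left 7453. limma 3.58.1 in R 4.3.3 (lmFit, eBayes with trend) was fitted with genotype only. Its p-values are two-sided, with Benjamini-Hochberg adjustment and a threshold of 0.05. The number of arrays limits the precision.

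The platform annotation gave 10833 probe sets 1 symbol, 396 several and 1193 none, and only the first were named. By gene ID, 10817 symbols were found in GRCm38.p6 and 0 changed. Each listed gene is given by its brightest probe set, and summed signals cover all measured genes of a list. Promoters are those of RefSeq.

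The members and gene lists were chosen with earlier results of these data known. Named are the members, Ccr9, the up to 4 tested genes with the largest change of each list (6 for thymic epithelium, keratins and cathepsins), all of lists with 5 or fewer, and the 2 probe sets closest in pattern to each member. The gene in which the mice were heterozygous is not reported here. The fit was tested on simulated data. Other scalings, floors, filters and moderations, a replicate block and each pool left out were tried.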

Additional observations from a re-analysis of the deposited data

How the results depend on the processing

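The changes of the 7 tested probe sets of Ccl25, Ly75, Krt8, Krt18, Krt17 and Ctsl kept their direction under every alternative that tested them, and all 7 were called lower in each of them but 1. Leaving out the lowest 60% left 5 tested and called, since Krt17 was then too dim. Settings of the filter, the moderation and the block cannot move a log2 change. Of those that can, quantile normalization moved Krt17 and cyclic loess moved Ctsl (-1.63) by more than the spread between pools, as did log2(signal + 32) for 1 probe set of Krt17 (-3.79) and heart muscle centring for all 7. Heart muscle centring lowers every change by the same amount and could not reverse a decrease. Of 49 called genes named from the lists, 23 kept their call throughout, and the cause of the other losses was not tested. Over all probe sets, 1206 were called without the filter on dim ones, and leaving out each pool gave 1707 (heterozygous pool 2) to 2289. With arrays at a common median the higher calls made up 58.5% in place of 46.8%, with quantile normalization 53.6% (median shifts of 0.13 and 0.11), and with heart muscle centring, chosen after seeing the data, 4.54% of 4185 calls (shift -0.65). That centring gave 9 lower thymic epithelial genes in place of 4, and reversed Krt19 (-0.059), Cst3 (-0.137), Foxj1 (-0.0868), Ctsb (-0.138), Dsp (-0.0081) and Perp (-0.0452). Leaving out the lowest 60% left 1 thymic epithelial gene and 2 keratins called lower, with fewer genes tested. Leaving out each pool gave 2 (without wild-type pool 2) to 4 thymic epithelial genes, 3 to 4 keratins, 3 to 4 cathepsins and 21 to 22 thymocyte genes, and counting every tested probe set gave 7 cathepsin calls. With pool number as a replicate block 3035 were called, and 7, 22, 4, 4 and 4 of the members and lists. The labels do not say that numbers pair the pools, and same-numbered deviations correlated at 0.158 over 2 pairs. Dim markers such as Foxn1 limit what can be seen.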
